A study of Drosophila melanogaster with 2 samples.

Results

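The genes described here are the 8 T-box genes of Drosophila melanogaster in the family list used (byn, org-1, mid, H15, bi, Doc1, Doc2 and Doc3) and tin, the homeobox gene of the heart, 9 of 13986 annotated protein-coding genes. ChIP-seq, the sequencing of DNA recovered by immunoprecipitation of chromatin, was used to map Bowl in whole embryos collected from 0 to 24 h, with 2 biological replicates. The embryos came from the bowl-GFP strain, in which Bowl, a zinc-finger transcription factor, is fused to eGFP, and the fusion was precipitated through an antibody against GFP. Both replicates carried the same fusion, no second strain, age or tissue was profiled, and the input control was not analysed here. A region was assigned to a gene if its summit lay in the gene body or if that gene had the nearest transcription start site (TSS) of all protein-coding genes. By that rule 5 of the 2198 peaks in the thresholded list of the pooled data lay at these genes, and 335 of the 132019 candidate regions from which that list was drawn.

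T-box proteins bind DNA through a shared domain and act as regulators of cell fate. In the fly, byn (brachyenteron) specifies the hindgut and posterior gut, org-1 (optomotor-blind-related-gene-1) sets muscle identity, and bi (bifid, also called optomotor-blind) patterns the wing and the optic lobe. The sister genes mid (midline) and H15 act in the heart and in the segmented ectoderm, and the clustered Dorsocross genes Doc1, Doc2 and Doc3 act together in the amnioserosa and the heart, where they work beside tin (tinman). Bowl belongs to the odd-skipped family, works with drm and lin in the gut, and is held in check by the product of lin. Because whole embryos were used, no signal below can be assigned to the hindgut, the heart or muscle, and a site bound in few cells cannot be told apart from a site bound weakly in many.

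The 5 regions that the results turn on are shown as the plus strand of the dm6 assembly around each summit, from the RefSeq sequence of that assembly. They lie at chrX:8455279-8455564 (org-1), chr3R:21378678-21378948 (tin), chr3L:9025829-9026029 (Doc2), chr2L:5476772-5476972 (mid) and chrX:4446123-4446323 (bi). Capitals mark matches to a panel of 6 short words that is given with the word counts, and the windows of org-1 and tin were widened to hold their matches.
org-1: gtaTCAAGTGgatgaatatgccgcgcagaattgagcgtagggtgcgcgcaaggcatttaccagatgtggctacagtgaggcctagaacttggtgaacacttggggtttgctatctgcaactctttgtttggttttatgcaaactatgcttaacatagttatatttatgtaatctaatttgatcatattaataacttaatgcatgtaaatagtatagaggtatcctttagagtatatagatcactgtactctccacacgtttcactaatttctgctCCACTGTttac
tin: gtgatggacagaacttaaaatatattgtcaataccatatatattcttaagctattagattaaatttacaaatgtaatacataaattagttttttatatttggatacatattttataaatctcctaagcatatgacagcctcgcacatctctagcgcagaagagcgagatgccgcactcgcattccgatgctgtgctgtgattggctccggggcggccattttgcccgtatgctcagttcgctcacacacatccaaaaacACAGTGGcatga
Doc2: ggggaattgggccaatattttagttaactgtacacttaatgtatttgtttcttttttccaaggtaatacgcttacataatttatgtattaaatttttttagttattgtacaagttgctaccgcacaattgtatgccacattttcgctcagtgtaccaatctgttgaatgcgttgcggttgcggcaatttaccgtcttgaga
mid: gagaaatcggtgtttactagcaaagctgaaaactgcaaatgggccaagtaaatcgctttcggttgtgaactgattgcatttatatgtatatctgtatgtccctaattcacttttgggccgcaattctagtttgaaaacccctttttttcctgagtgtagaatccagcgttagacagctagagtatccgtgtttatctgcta
bi: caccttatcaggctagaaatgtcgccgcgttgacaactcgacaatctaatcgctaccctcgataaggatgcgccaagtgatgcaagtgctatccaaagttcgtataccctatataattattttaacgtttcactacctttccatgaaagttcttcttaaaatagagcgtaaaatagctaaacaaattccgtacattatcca
The G and C content within 100 bp of the summit was 33.3% for org-1, 33.3% for tin, 35.3% for Doc2, 39.8% for mid and 38.8% for bi. All 5 values lay between the quartiles of all pooled peaks, 32.8% and 46.3%, around a median of 38.3%.

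Among these genes, org-1, tin, Doc2, mid and bi each had a single Bowl peak, and byn, H15, Doc1 and Doc3 had none. The peaks of the muscle gene org-1 and the heart gene tin lay just upstream of the gene start and were the strongest, with pooled signals of 223 and 194. Those of Doc2, mid and bi lay 6683, 15233 and 19088 bp from the nearest start, with signals of 127, 98.3 and 66.5. Signal is the authors' own score of a region, it has no stated scale, and it is used here only to rank and describe regions within a list. In the pooled list 1824 of 13986 protein-coding genes, 13.0%, had a peak by the same rule. Each of the 9 members had at least 8 candidates, and among the 6113 genes with that many, 1323 had a peak, 21.6%, a limit set after the members' numbers were seen. The members were picked with earlier results of these data known, so their count of 5 of 9 is a description and no test was made of it.

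**Figure D1:**
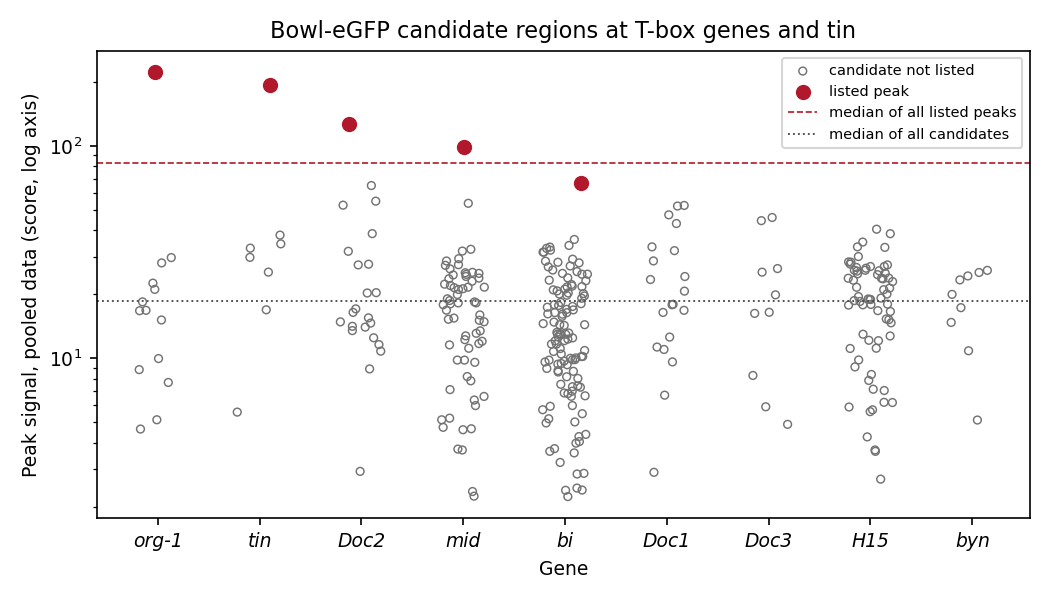
Pooled signal (log axis) of the 335 candidate regions at the 9 genes, with listed peaks filled and the medians of all listed peaks (82.6) and all candidates (18.7) as lines. In org-1, tin, Doc2, mid and bi 1 region each stands above the rest of the gene's candidates, whereas Doc1, Doc3, H15 and byn have no listed region.

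The org-1 peak (chrX:8455363-8455505) was the strongest of the family and ranked 165 of 2198. org-1 (FBgn0021767) runs on the minus strand from 8447691 to 8455069 of the X, and the summit lay 365 bp upstream of its start, in the promoter class, which takes summits within 500 bp of a TSS. Replicate 1's ranked list gave this region a signal of 138.7 and replicate 2's a signal of 79.2, and both replicates' thresholded lists held it, at rank 169 of 1662 and rank 202 of 772. The 2 replicates therefore both placed it among their listed peaks, with summits 10 and 35 bp from the pooled one. The other 13 pooled candidates of org-1 ran from 4.64 to 29.8, so the promoter region stood far above the gene body. In the pooled list its neighbours by rank were an intronic peak nearest to CG11362, at 222.9, and a promoter peak of mrj, a gene of the DnaJ chaperone family, at 221. The next start of another protein-coding gene, CG32713, was 2198 bp away.

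The tin peak (chr3R:21378623-21378932) was the second of the family and ranked 219 of 2198. tin (FBgn0004110) lies on the plus strand from 21378977 to 21381970, and the summit was 199 bp upstream of its only annotated start. Its signal was 135 in replicate 1, rank 173 of that thresholded list, and 70.8 in replicate 2, rank 257. Both replicates listed it, with summits 8 and 2 bp from the pooled one. Upstream, the next start belonged to mod(mdg4), a chromatin insulator gene that runs in the opposite direction, 1377 bp from the summit, so the peak was the nearer to tin. The remaining 7 candidates of tin had signals between 5.58 and 37.97.

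The Dorsocross genes held 1 listed peak and several candidates short of the threshold. The peak (chr3L:9025774-9026083) ranked 508 and lay in the 22128 bp between Doc2 and Doc1, which run away from each other with no other protein-coding gene between them. Its summit was 6683 bp upstream of the Doc2 start and 15446 bp from the nearest Doc1 start, so that the assignment to Doc2 rests on distance alone. The signal was 80.8 in replicate 1 and 52.3 in replicate 2, and both thresholded lists held it, at rank 491 of 1662 and 471 of 772. The gap held 28 candidates with a median signal of 22.1, and after the listed peak the strongest had 65.0, 54.9, 52.5 and 52.4. The first of these lay 6170 bp upstream of Doc2, next to the listed peak, and its −log10 IDR was 1.53 in the pooled ranked list and 1.94 in the list that compares the replicates. The irreproducible discovery rate (IDR) estimates the chance that a region's rank would not repeat between 2 sets, and listed peaks have a −log10 IDR of at least 2.

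At the start sites of the 3 Dorsocross genes no candidate was listed. The best promoter candidates had pooled signals of 43.0 for Doc1, 52.5 for Doc2 and 44.4 for Doc3, against a median of 30.5 over the 11488 genes with a promoter candidate. Their −log10 IDR values were 1.03, 1.65 and 1.24. In replicate 1 the best promoter candidates of Doc1, Doc2 and Doc3 had signals of 19.6, 30.6 and 26.3, and in replicate 2 of 20.4, 12.2 and 14.3. The medians over genes with a promoter candidate were 20.5 in replicate 1 and 15.6 in replicate 2. Doc1 was under the median in replicate 1, and Doc2 and Doc3 were under it in replicate 2. The Dorsocross promoters ranked 2969, 1916 and 2771 of 11488 in the pooled data, whereas org-1 ranked 134 and tin 178. Over all genes, 1291 of 13986 had a listed peak within 500 bp of a start, 9.23%, and among the 9 genes org-1 and tin did.

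The mid peak (chr2L:5476717-5477026) lay outside the gene, on its far side from H15. mid (FBgn0261963) runs on the plus strand from 5461639 to 5467610, and the summit was 9262 bp beyond its 3' end and 40865 bp from the next protein-coding gene, CG14020. The signal was 55.3 in replicate 1, whose list held it at rank 1006 of 1662, and 39.1 in replicate 2, whose list did not. In replicate 2 the region was at rank 910 of 106305 candidates by signal, and 731 of the 910 candidates at least that strong, 80.3%, were listed. That share is over all the stronger candidates together, not over regions near rank 910, and replicate 2's list held 772 peaks in all. The −log10 IDR of the mid region in replicate 2 was 0.225, against 2.64 in replicate 1 and 2.77 between the replicates. So the region ranked high in both replicates, but within replicate 2 its rank did not repeat well enough to be listed.

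H15, the sister of mid, had 68 pooled candidates and 0 peaks. Its strongest region, in the gene body 8471 bp from the nearest start, had a pooled signal of 40.5 and a −log10 IDR of 0.496. The strongest region was 23.3 in replicate 1 and 25.4 in replicate 2, and these were different regions, 8489 and 7423 bp from a start. Between H15 and mid lay 45045 bp without another protein-coding gene, with 57 candidates, 0 peaks and a highest signal of 53.6. That highest region was 15211 bp upstream of mid, with a −log10 IDR of 0.415 in the pooled data and 1.27 between the replicates. Neither gene had a listed promoter region, and the best promoter candidates had signals of 21.98 for mid and 25.1 for H15, under the median of 30.5 over genes.

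The bi peak (chrX:4446068-4446377) was the weakest of the 5 and stood nearest to the threshold. bi (FBgn0000179) is the longest of the 9 genes, 72792 bp on the plus strand with 3 annotated starts, and its peak lay in an intron 19088 bp from the nearest start and 33.4 kb from the outermost one. A long noncoding RNA gene, lncRNA:CR32773, also covers the position. The signal was 43.5 in replicate 1 and 25.1 in replicate 2, and only replicate 1's list held the region, at rank 1480 of 1662. Its −log10 IDR was 2.41 in the pooled data and 2.001 in replicate 1, inside the threshold, and 1.95 between the replicates and 0.628 in replicate 2, outside it. In replicate 2, 764 of the 4201 candidates at least as strong were listed, 18.2%. The other 117 pooled candidates of bi had a median signal of 12.6 and a highest signal of 36.2.

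The hindgut gene byn had the lowest strongest candidate of the 9 genes, in the pooled data and in both replicates. byn (FBgn0011723; chr3L:11927693-11935919) had 9 pooled candidates with signals from 5.12 to 25.9, a median of 19.97 and a highest −log10 IDR of 0.356. Its strongest candidate ranked 37766 of 132019. The strongest region had a signal of 15.8 in replicate 1 and 17.2 in replicate 2, and the best promoter candidate 12.1 and 13.96. The whole byn gene lies within CG44837, a gene on the opposite strand, and all 9 candidates lay in that gene too. By its strongest candidate byn ranked 11149 of the 13122 genes that have a candidate, where org-1 ranked 184, tin 239, Doc2 526, mid 816, bi 1599, Doc1 2789, Doc3 3953 and H15 5575. A gene with more candidates has more chances of a high one, and the number ran from 8 at tin to 118 at bi, against a median of 6 per gene.

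**Figure D2:**
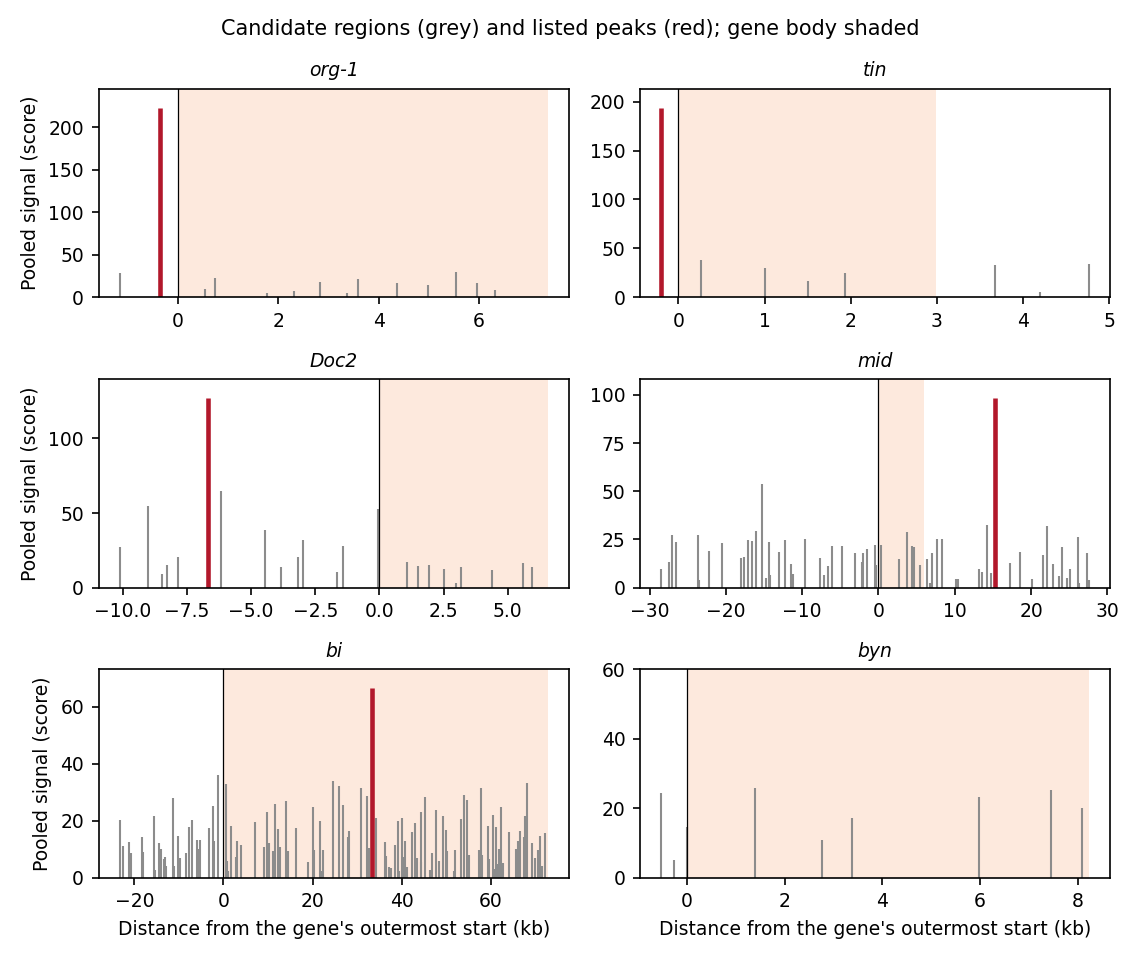
Pooled signal of each candidate region (grey) and listed peak (red) against the distance of its summit from the gene's outermost start, in kb along the direction of transcription, with the gene body shaded. The peaks of org-1 and tin sit just upstream of the start, that of Doc2 far upstream, that of mid beyond the gene, that of bi inside it, and byn has candidates only up to 25.9.

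Grouped by the tissue of their known role, a pooled peak was found at 0 of 1 hindgut gene, 1 of 1 muscle gene, 3 of 6 heart genes (tin, Doc2 and mid) and 1 of 1 gene of the wing and optic lobe. Of all protein-coding genes 13.0% had one, and of those with at least 8 candidates 21.6%. The conservative list held no peak at the wing and optic lobe gene, and replicate 2's list none at that gene or at mid. The 6 heart genes held 194 candidates with a median signal of 18.4, byn 9 with a median of 19.97, org-1 14 with 16.8 and bi 118 with 12.7. The median was highest for byn, the group without a peak, and lowest for bi. Of these candidates 3 were listed at the heart genes, 0 at byn, 1 at org-1 and 1 at bi. Of all pooled candidates 1.66% were listed. The limit of 8 candidates does not match the largest loci, since mid held 65, H15 68 and bi 118. The groups hold 1 to 6 genes, and no test between them was made.

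By candidates rather than by genes, the share listed was close to that of the genome. Of the 335 pooled candidates at these genes 5 were listed, 1.49% (95% Wilson interval 0.639 to 3.45), against 1.66% of all 132019. Their median signal was 16.8 against 18.7 for all candidates, and 139 of the 335 were at or above that genome-wide median. The listed peaks had a median signal of 127 against 82.6 for all pooled peaks. The interval covers counting error over regions only, read depth is unknown because the lists hold no read counts, and neighbouring candidates are not independent.

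By position, 2 of the 5 peaks were in promoters, 2 were intergenic and 1 was intronic. Of all pooled peaks 49.0% were in promoters, 13.6% intergenic and 33.5% intronic. Among the 2198 pooled peaks, 88 lay farther from a start than the mid peak, 4.004%, and 60 farther than the bi peak, 2.73%, while 12.6% lay farther than the Doc2 peak. The distances of org-1 and tin were exceeded by 54.8% and 64.6% of peaks.

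The smaller, conservative list, whose regions were ranked by comparing the 2 replicates with each other, held 4 of the 5 regions and lacked that of bi. In that list 9.89% of protein-coding genes had a peak. Replicate 1's own list held 5 of the 9 genes, where 10.3% of all genes had a peak, and replicate 2's list held org-1, tin and Doc2, where 5.38% did. Over all pooled peaks 65.2% overlapped replicate 1's list by at least 1 bp and 34.6% replicate 2's. The overlap fell with rank. Among ranks 1 to 549, which hold org-1, tin and Doc2, 99.6% of peaks overlapped replicate 1's list and 89.6% replicate 2's. Among ranks 550 to 1099, which hold mid, the shares were 81.8% and 34.2%, and among ranks 1649 to 2198, which hold bi, 29.3% and 6.36%. The absence of mid and bi from replicate 2's list was thus shared by most pooled peaks of their strength. Whether replicate 2's shorter list reflects its depth was not tested. Since nothing in the labels describes the embryo collections further than as biological replicates, the spread between 2 samples is all that can be given.

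**Figure D3:**
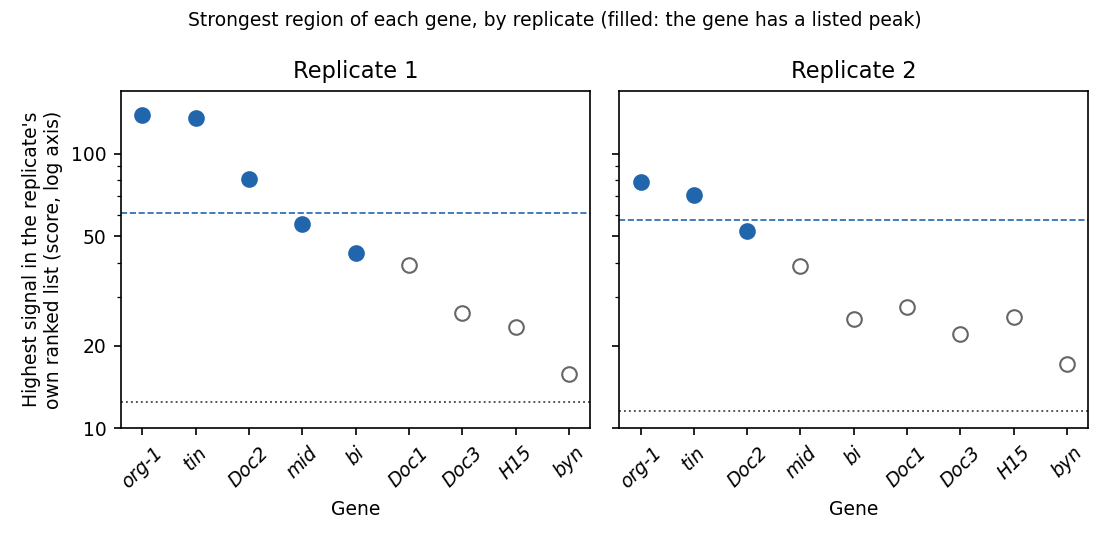
Highest signal of any region at each gene in the ranked list of replicate 1 and of replicate 2 (log axis), filled where the gene has a listed peak, with the medians of that replicate's listed peaks (61.0 and 57.5, dashed) and candidates (12.5 and 11.6, dotted). org-1, tin and Doc2 are highest in both replicates, and byn is lowest in both.

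**Figure D4:**
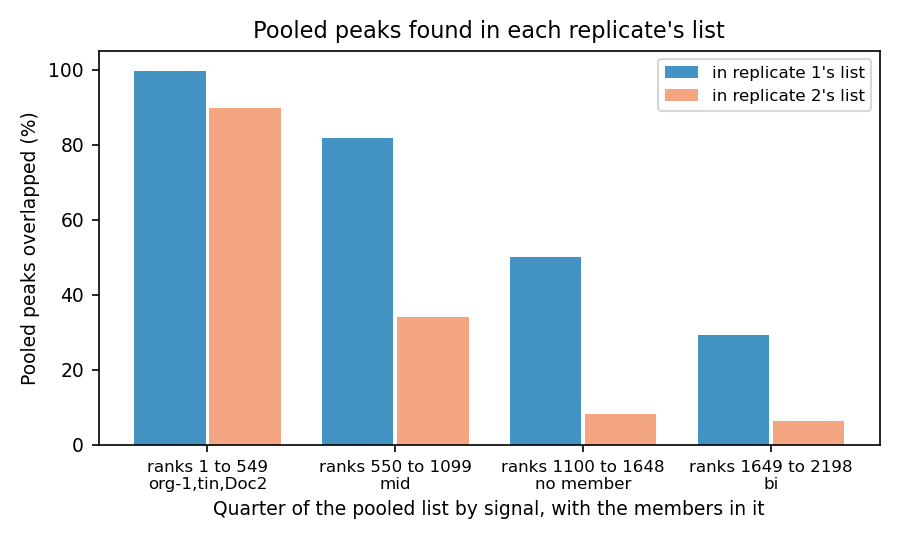
Share of pooled peaks, in percent, that overlap a peak of replicate 1's or replicate 2's list by at least 1 bp, in 4 bins of near-equal size of the pooled list ranked by signal. The share falls from 99.6% to 29.3% for replicate 1 and from 89.6% to 6.36% for replicate 2.

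The sequences hold few matches to the panel of words. The words, read on both strands, were ACAGTGG, which stood out in an earlier look at these peaks, CAGTAGC, the core used for the odd-skipped family, AGGTGTGA for T-box proteins and its core GGTGTGA, which it contains, TCAAGTG for Tinman and GAGAGAG for the GAGA factor. Within 100 bp of the summit 0 of the 5 peaks had any of them, while among all 2198 peaks 10.3% held ACAGTGG, 2.41% CAGTAGC, 0.273% AGGTGTGA, 1.82% GGTGTGA, 3.32% TCAAGTG and 6.41% GAGAGAG. Within 200 bp of the summit, the windows of both promoter peaks held ACAGTGG. So did those of 330 of all 2198 peaks and of 7324 of the 130995 candidates searched, 5.59%. At org-1 it was on the minus strand, 123 bp from the summit (chrX:8455554-8455560), and at tin on the plus strand, 162 bp from the summit and closer to the gene start (chr3R:21378937-21378943). TCAAGTG lay once, 149 bp from the org-1 summit (chrX:8455282-8455288), against 6.41% of all peaks and 7.83% of candidates. None of these matches lay inside the called peaks, which span chrX:8455363-8455505 at org-1 and chr3R:21378623-21378932 at tin. With 5 peaks these counts are descriptions, and a word that is missing says only that these letters are not in the window.

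Other genes of the same tissues were counted by the same rule, on lists chosen by function. Some genes belong to more than 1 list. In the heart list 5 of 13 genes had a pooled peak, the guidance ligand gene sli (signal 138.8), the GATA cofactor gene ush (114.4), Mef2 (72.8), the muscle differentiation factor, zfh1 (69.1) and tup (68.0), an Islet-type homeobox gene. A stronger candidate assigned to ush, with a pooled signal of 950.8 and a −log10 IDR of 5, was not in the thresholded list, although it was past the threshold. The cardiac factors pnr, Hand and svp had none, with highest pooled −log10 IDR values of 1.09, 0.569 and 0.837. In the mesoderm and muscle list 5 of 22 had a peak, the adhesion gene kirre (184) with 11 peaks, the titin-like gene sls (131), ap (73.8), Mef2 and rols (64.8). The early mesoderm genes twi, sna, htl, bap and bin had none. Their highest pooled −log10 IDR values were 1.17, 0.631, 0.704, 0.350 and 1.94, so bin lay just under the threshold of 2 in the pooled data. At bin the highest value was 1.27 between the replicates, 1.24 in replicate 1 and 0.257 in replicate 2. The amnioserosa list had 4 of 9 and the wing and optic lobe list 3 of 9, both with dpp, the gene of a BMP-type ligand (111.8).

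Of the lists counted, the hindgut and posterior gut list had the most genes with a pooled peak, 9 of 16, although byn itself had none. Of those 16 genes the conservative list held a peak at 6, replicate 1's list at 7 and replicate 2's list at 5. Over all protein-coding genes those lists held a peak at 9.89%, 10.3% and 5.38%. Replicate 1's list also held a peak at 7 of 9 wing and optic lobe genes. In the pooled data the gut list was led by bowl (431), drm (223), otp (196), a homeobox gene, lin (179) and dpp. The labels name an insertion targeting bowl and do not say whether a second copy of the gene is present. A peak at bowl therefore cannot be assigned to the inserted fusion or to an untagged gene. The gut genes fkh, cad, tll and hh had none, with highest pooled −log10 IDR values of 1.73, 0.420, 0.774 and 1.54. The pooled shares of all these lists stand beside 13.0% of all protein-coding genes and 21.6% of genes with at least 8 candidates. Listed genes were not matched to others by their number of candidates. The lists were not tested, since they were chosen with results of these data known. The strongest candidate per gene had a median signal of 59.1 both in the gut list and in the wing and optic lobe list. That median was 53.3 in the heart list and in the amnioserosa list, and 53.6 in the muscle list. Over the 9 members it was 66.5, against 37.9 over all genes with a candidate. Some peaks were assigned through the gene body while nearer to another gene's start, at CG32795 for kirre, Cib2 for otp, and CG10602 and mRpL13 for tup.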

How the data were processed

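Peak lists were deposited by the authors on dm6, per the labels, for each of 2 replicates and for both pooled. No aligner or caller is named: not given in the sources used here. Ranked lists hold candidates, thresholded lists the peaks, and the conservative list is the thresholded part of the ranked list that compares the 2 replicates. The authors' signal is a score with no stated scale. The deposited −log10 IDR is capped at 5, and 2 stands for an IDR of 0.01. Of candidates past 2 in the pooled data, 89 are missing from the pooled list, 0 of them at members. A pair of unnamed replicate columns were not assigned to replicates, so each replicate's values come from its own lists. In a replicate, a pooled peak was given the strongest overlapping candidate.

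Summits were assigned with Ensembl release 115 gene models (annotation 6.54), and sequence came from RefSeq Release 6, whose chromosomes hold all candidate positions. A summit was placed in a promoter within 500 bp of a protein-coding TSS, and otherwise in coding sequence, a UTR, an intron or intergenic sequence. Shares carry 95% Wilson intervals (scipy 1.17.1). Assignment and word search were checked on simulated positions. No test between groups was possible with 1 group. The 9 members, the 5 gene lists and the words were chosen with earlier results of these data known. All members were named, with up to 5 genes per list by signal; genes of the lists named without a peak were chosen after their values were seen. Alternatives varied the list, the assignment, the promoter width, the overlap and the word window. Of the listed gut genes, Dl was not matched to the annotation by symbol and was not analysed here. Protein sequences of the members were not used here.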

Additional observations from a re-analysis of the deposited data

How the results depend on the processing

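The count of 5 members with a peak, and of 5 peaks, depended mostly on how far from a gene a peak may lie. With the nearest TSS within 5 kb both counts were 2 (org-1 and tin), and with summits in the gene body only they were 1 (bi). Of all protein-coding genes 10.7% and 7.76% had a peak by these 2 rules, against 13.0% by the main rule. Leaving out a replicate gave 3 to 5 members and 3 to 5 peaks: without replicate 1, mid and bi were lost. The share of all genes with a peak was 5.38% without replicate 1 and 10.3% without replicate 2. The conservative list gave 4 members, peaks at or above the median signal gave 4, and the nearest TSS alone, any overlap with the gene body, and adding missing candidates each gave 5. The share of member candidates listed ran from 0.662% (gene body) to 2.0% (replicate 1's list), within the main interval. With promoters narrowed to 200 bp, 1 of the 5 peaks (tin) was in a promoter, and within 1000 bp 2 were. Of all pooled peaks 35.5% were in a promoter within 200 bp and 59.2% within 1000 bp. Requiring an overlap of 50% of both peaks left 5 regions shared with replicate 1 and 3 with replicate 2. Over all pooled peaks that overlap was met by 61.8% for replicate 1 and 29.7% for replicate 2. Within 200 bp of the summit, the windows of 2 member peaks held ACAGTGG and that of 1 held TCAAGTG, against 0 within 100 bp, because the window is wider. These matches lay outside the called peaks themselves. No paired analysis was possible because the study has 1 group. Read depth is unknown, so how depth limits the weaker regions of mid and bi was not tested.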

Other observations

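Genes that act beside bi in wing patterning differed between lists. Replicate 1's own list held a peak at 7 of 9 genes of the wing and optic lobe list, the pooled list at 3 and replicate 2's list at 1. Over all protein-coding genes those lists held a peak at 10.3%, 13.0% and 5.38%. The 4 genes listed in replicate 1 and absent from the pooled list were brk, a repressor of Dpp targets, the zinc-finger gene salm, the Dpp receptor gene tkv and sd, a partner of Vestigial. Their highest pooled −log10 IDR values were 1.62, 1.999, 1.60 and 1.38, so salm missed the threshold of 2 narrowly in the pooled data. At salm the highest value was 2.03 in replicate 1, 1.11 between the replicates and 0.543 in replicate 2. In replicate 2's list dpp alone of the 9 had a peak.

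The strongest unlisted region of Doc1, 8545 bp upstream, had a pooled signal of 52.4, and another in its gene body, 981 bp from the start, had 52.0. Between the replicates the first had a −log10 IDR of 1.63, against 0.728 in the pooled data.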
